A study of Mus musculus with 6 samples.

Results

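The genes described here encode proteins with a TBC domain, the domain of many Rab GTPase-activating proteins (GAPs). They were chosen by symbol: the numbered TBC1D genes with an optional letter A, B or C, TBCK, RABGAP1, RABGAP1L and SGSM1 to SGSM3, with a summed expected count of at least 60 over the 6 samples. Of 58870 genes in the tables, 41 had such a symbol and 36 reached the minimum count. The 5 that did not were TBC1D10C, TBC1D21, TBC1D28, TBC1D3 and TBC1D3C, which had summed counts from 0 to 18, while the lowest above the minimum was TBC1D26 with 178. All samples were of 77-5 cells, a single clone of T-REx-293 cells that carries a BAC minigene of mouse Ntrk2. T-REx-293 cells are HEK293 cells of human embryonic kidney in which doxycycline switches on a gene placed behind a tetracycline-controlled promoter, here Rbfox1. The untreated samples (No Dox, n = 3) and the samples given doxycycline at a labelled 0.5 mg/ml for 48 h (Dox, n = 3) therefore shared the clone, the minigene and the inducible Rbfox1, and differed both in the drug and in Rbfox1, which cannot be told apart here. The methods of the study also give 0.5 mg/ml, while its legends give the dose in micrograms. The labels name mouse as the organism, but the transcripts measured were human.

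Rab GTPases mark the membranes of the secretory and endocytic pathways and act while bound to GTP. A TBC domain protein that acts as a GAP ends this state by speeding up GTP hydrolysis. For this, most such domains offer an arginine and a glutamine to the GTPase. Each protein is recruited to particular membranes by its other domains. TBC1D1, TBC1D4 and TBC1D24 have known tissue-specific isoforms. Rbfox proteins are splicing regulators of muscle and brain that bind (U)GCAUG in RNA and promote or repress nearby exons according to where they bind.

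Total expected counts, RSEM's estimates of fragments per sample, ran from 59822964 to 65774104. Samples of a group differed beyond sampling noise (chi-square per degree of freedom 2.36 to 6.73 over genes), but the labels do not say whether they were separate cultures, so p-values measure the spread between these samples. RBFOX1 was at 7.53 ± 0.79 TPM (transcript abundance scaled for length and depth, SD, n = 3) in No Dox and 188 ± 1.8 TPM in Dox, and RBFOX2 fell by 1.71 on the log2 scale. Of the genes expected in HEK293 cells, VIM was at 692 TPM, KRT8 at 227, KRT18 at 155 and CDH2 at 30.5 TPM in No Dox, while PAX2 (2.43 TPM) and NEFM (0.55 TPM) were low. In Dox, VIM, KRT8 and KRT18 fell and CDH2 and NEFM rose, and mitochondrial genes took 3.61% to 3.71% of counts against 3.25% to 3.34% in No Dox, whose part in the results below was not tested. The 6 markers of blood, endothelium, liver and muscle had group means of at most 0.357 TPM.

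The first comparison asked which of these genes changed in level. Of the 36, 7 rose and 13 fell in Dox at an adjusted p under 0.05 by edgeR, and 16 did not pass. That is 55.6% of them, against 51.4% of all 18264 genes tested, of which 24.9% rose and 26.5% fell, so their share was near that of all genes. Their changes were small: log2 fold changes ran from -0.62 to 0.74, with a median of -0.01, and the median absolute change was 0.12 against 0.18 for all genes. The TPM of 18 of the 36 genes did not overlap between the groups, against 50.2% of all genes. Among the 18 were TBC1D9, TBC1D20, TBC1D22B and TBC1D32, which were higher in Dox but did not pass the test. Of the 20 changed genes, 14 were called in each of the 12 fits on counts. The other 6, TBC1D1, TBC1D7, TBC1D10B, TBC1D15, TBC1D31 and SGSM3, had log2 fold changes from -0.14 to 0.15 and lost the call in at least 1 of these fits. When counts were scaled by library size alone, 10 genes rose and 8 fell, so the directional split of these small changes depends on the scaling. That fit also called TBC1D9 (log2 fold change 0.12, edgeR adjusted p = 0.017), TBC1D22B (0.11, edgeR adjusted p = 0.026) and TBC1D16, which the main fit did not. RNA was taken from whole cultures, in which a lower level cannot be told apart from fewer cells that express the gene.

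**Figure D1:**
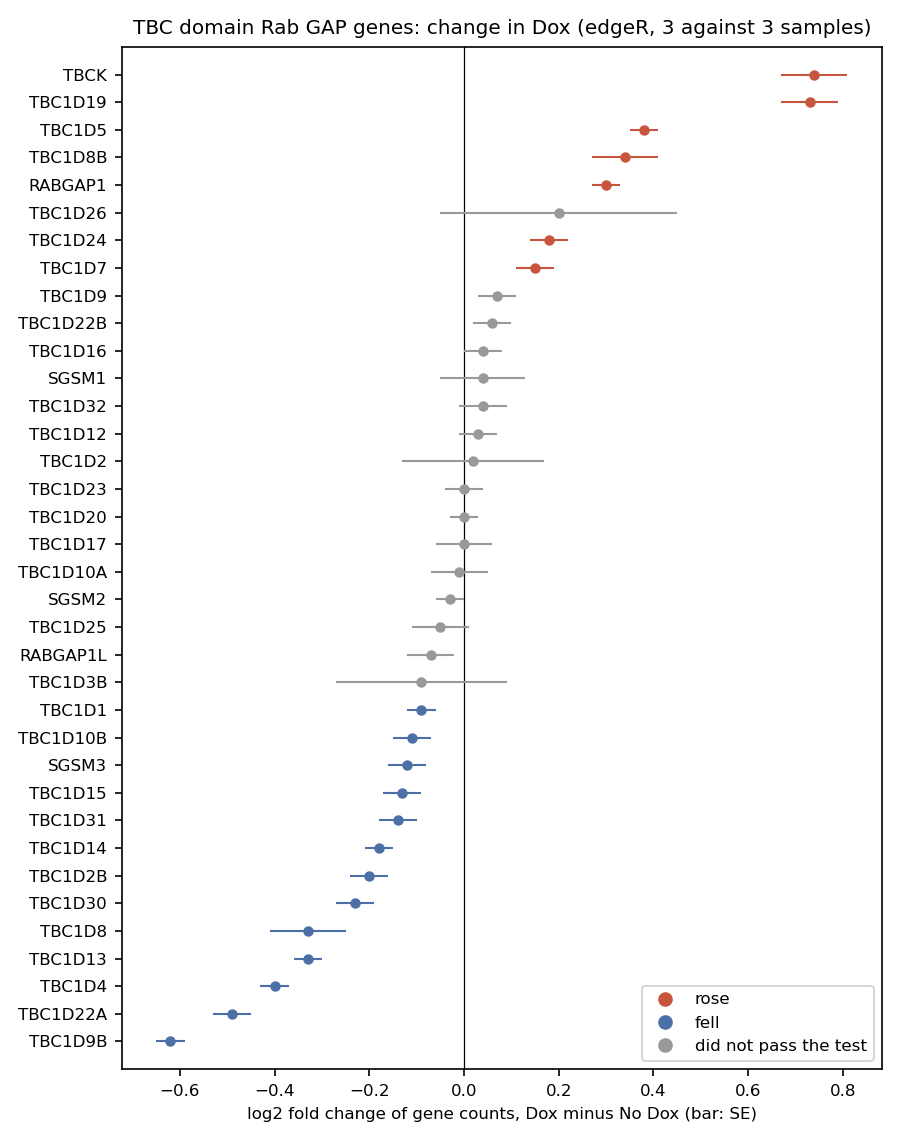
Change in gene counts in Dox against No Dox (x axis, log2 fold change by edgeR; bar, SE) for each of the 36 genes, coloured by call. TBCK (0.74) and TBC1D19 (0.73) lie farthest to the right and TBC1D9B (-0.62) and TBC1D22A (-0.49) farthest to the left.

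Among these genes TBC1D9B had the highest level in untreated cells, and it also had the largest fall in counts. TBC1D9B (ENSG00000197226.12), a large GAP with GRAM domains that has been linked to RAB11A, was at 86.4, 85.0 and 85.7 TPM in No Dox and at 68.9, 63.9 and 61.2 TPM in Dox. All Dox samples were below all No Dox samples, with a log2 fold change of -0.62 ± 0.03 (SE) in counts and an edgeR adjusted p of 2.7e-10. With limma on log2(TPM + 1) the change was smaller, at -0.4. On that scale TBC1D4 (-0.4) and TBC1D22A (-0.39) fell about as much. Its relatives were at much lower levels and moved both ways. TBC1D8 was at 4.22, 4.27 and 4.61 TPM in No Dox and at 3.88, 3.61 and 3.75 TPM in Dox (log2 fold change -0.33 ± 0.08, edgeR adjusted p = 0.0028). TBC1D8B, which has been linked to RAB11 and to nephrotic syndrome, was at 2.35, 2.11 and 2.25 TPM in No Dox and at 2.94, 2.52 and 3.19 TPM in Dox, all higher, with a log2 fold change of 0.34 ± 0.07 (edgeR adjusted p = 0.0011). TBC1D9, at 7.79 ± 0.38 and 8.52 ± 0.32 TPM, did not pass (edgeR adjusted p = 0.13). The tables list an antisense gene at TBC1D8 and another at TBC1D22A, and it is not stated whether counting used strand, so reads of these pairs may not be told apart.

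The 2 members with the largest rises were both weakly expressed. TBCK (ENSG00000145348.16) encodes a subunit of the FERRY complex, which ties mRNA to early endosomes, and its loss causes a neurodevelopmental disorder. It was at 4.96, 4.22 and 4.04 TPM in No Dox and at 7.11, 6.56 and 7.01 TPM in Dox, with no overlap (log2 fold change 0.74 ± 0.07, edgeR adjusted p = 1.9e-07). TBC1D19 (ENSG00000109680.11) was at 5.64, 5.35 and 5.23 TPM in No Dox and at 9.24, 8.76 and 10.5 TPM in Dox (log2 fold change 0.73 ± 0.06, edgeR adjusted p = 9.5e-08). The Dox samples again lay wholly above the No Dox samples. TBC1D7, the smallest subunit of the TSC complex that restrains mTORC1, was at 27.0 ± 1.1 and 29.9 ± 0.81 TPM, a log2 fold change of 0.15 that edgeR called (adjusted p = 0.0084) and DESeq2 did not (adjusted p = 0.05 after rounding). Its partners moved apart: TSC1 rose by a log2 fold change of 0.39 ± 0.03 and TSC2 fell by 0.23 on the log2 scale.

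TBC1D4 and TBC1D1 are the AKT substrates that hold glucose transporter vesicles inside muscle and fat cells until insulin or exercise acts. TBC1D4 (ENSG00000136111.13), also called AS160, was at 24.3, 25.4 and 27.6 TPM in No Dox and at 19.6, 18.8 and 19.3 TPM in Dox. The groups did not overlap, and the log2 fold change was -0.40 ± 0.03 (edgeR adjusted p = 6.9e-09). TBC1D1 was at 26.7 ± 0.97 and 26.2 ± 1.5 TPM, and its log2 fold change of -0.09 passed with edgeR (adjusted p = 0.035) but not with DESeq2 (adjusted p = 0.071). In untreated cells the levels of both were within their spread of each other.

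Of 9 genes of endosomes, autophagy and mitochondria, 1 rose and 3 fell, against 24.9% and 26.5% of all genes tested. TBC1D5 (ENSG00000131374.14), a RAB7 GAP that binds retromer, was at 30.9, 32.5 and 34.1 TPM in No Dox and at 39.4, 40.1 and 41.1 TPM in Dox (log2 fold change 0.38 ± 0.03, edgeR adjusted p = 8.5e-09). Each Dox sample was above each No Dox sample. TBC1D14, a regulator of RAB11 traffic to autophagosomes, fell from 28.9 ± 0.23 to 26.3 ± 0.86 TPM, and TBC1D2B fell from 14.2 ± 0.65 to 13.0 ± 0.32 TPM. The change of TBC1D15, a RAB7 GAP of mitochondria, was a log2 fold change of -0.13 that was lost without No Dox replicate 2 or 3. TBC1D2, TBC1D12, TBC1D16, TBC1D17 and TBC1D25 did not pass.

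RABGAP1 and RABGAP1L are related proteins with a phosphotyrosine-binding domain before the TBC domain. RABGAP1 (ENSG00000011454.17), first described at the centrosome as a partner of RAB6, was at 15.2, 15.6 and 14.3 TPM in No Dox and at 18.4, 18.4 and 19.0 TPM in Dox, with no overlap and a log2 fold change of 0.30 ± 0.03 (edgeR adjusted p = 8.6e-07). RABGAP1L, at 11.6 ± 0.81 and 10.9 ± 0.07 TPM, did not pass at the gene level (edgeR adjusted p = 0.22), but was called without No Dox replicate 1 (log2 fold change -0.12, edgeR adjusted p = 0.045). Whether the pair differed from each other in its change was not tested.

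Among the genes of TBC domain proteins studied with RAB35, TBC1D13 and TBC1D10B fell, TBC1D24 rose and TBC1D10A did not pass. TBC1D24, a gene of epilepsy and deafness whose TBC domain lacks the usual catalytic residues, rose from 11.6 ± 0.36 TPM in No Dox to 14.2 ± 1.0 TPM in Dox, with no overlap (log2 fold change 0.18 ± 0.04, edgeR adjusted p = 0.0017). TBC1D13 (ENSG00000107021.16) had a log2 fold change of -0.33 ± 0.03 in counts (edgeR adjusted p = 3.6e-07), but its TPM was 27.7, 26.7 and 26.9 in No Dox and 27.3, 26.6 and 26.2 in Dox, which overlap. SGSM3 also differed between the scales, since its counts fell (log2 fold change -0.12, edgeR adjusted p = 0.023) while its TPM was 60.8 ± 1.6 and 62.7 ± 2.6. TPM, unlike counts, is scaled by isoform length.

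In the secretory pathway, TBC1D22A (ENSG00000054611.14), a protein of the Golgi, was at 10.2, 11.8 and 11.6 TPM in No Dox and at 7.48, 8.87 and 8.58 TPM in Dox. It had the second largest fall in counts (log2 fold change -0.49 ± 0.04, edgeR adjusted p = 9.6e-08), and the groups did not overlap. Its paralog TBC1D22B, at 9.58 ± 0.14 and 10.3 ± 0.28 TPM, did not pass, nor did TBC1D20, a RAB1 and RAB18 GAP of the endoplasmic reticulum, or TBC1D23, which tethers endosomal vesicles at the trans-Golgi. Of the genes tied to cilia and centrosomes, TBC1D30, a RAB8 GAP, fell from 14.5 ± 1.2 to 11.6 ± 0.43 TPM (edgeR adjusted p = 0.00014), TBC1D31 of centriolar satellites had a log2 fold change of -0.14, and TBC1D32, needed for Hedgehog signalling, did not pass. SGSM1, SGSM2, TBC1D3B and TBC1D26 did not pass either. TBC1D3B belongs to a family of near-identical copies among which RSEM may divide reads, and TBC1D26 had 178 counts in all.

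**Figure D2:**
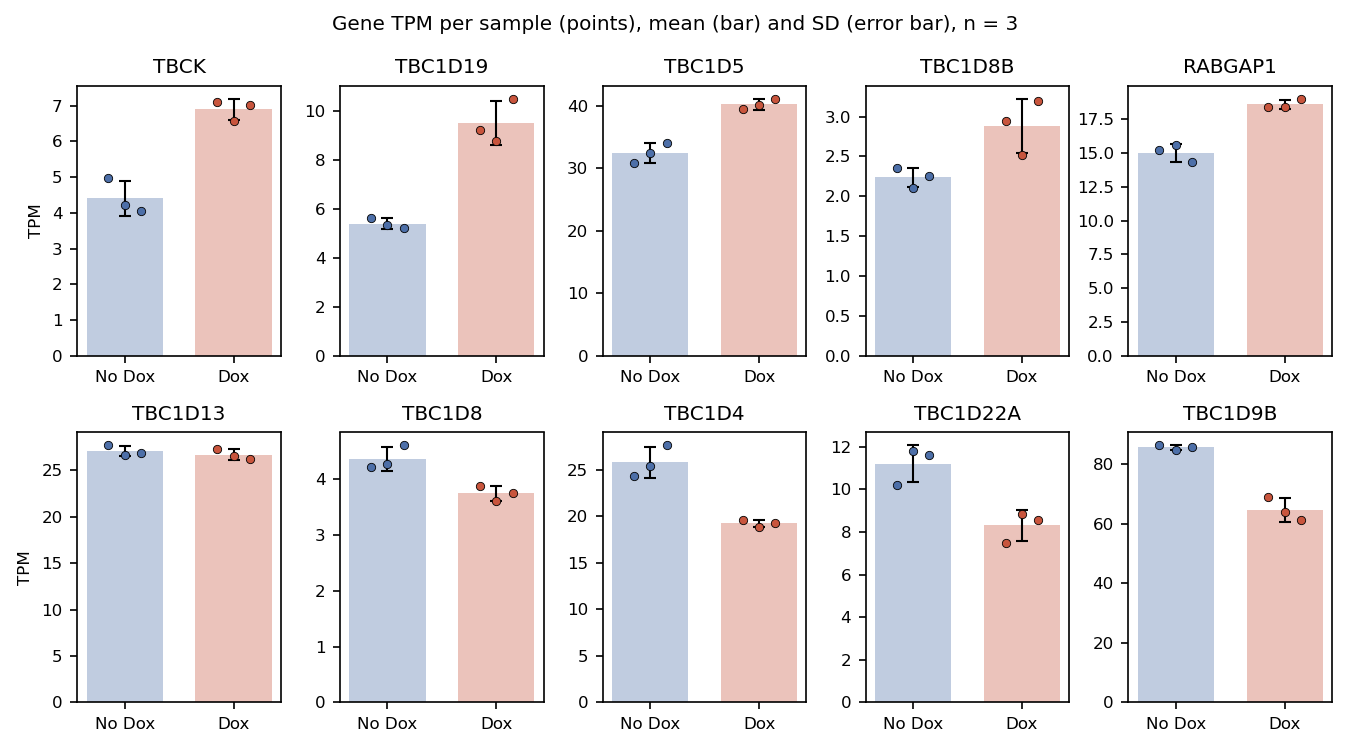
TPM in each sample (points), mean of the group as a bar that starts at 0 and SD as a line (n = 3) for the 10 genes that changed with an absolute log2 fold change of at least 0.3. The groups are apart in 9 of the 10 panels and overlap for TBC1D13, whose counts fell while its TPM was 27.1 in No Dox and 26.7 in Dox.

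The 10 genes with an absolute log2 fold change of at least 0.3 (27.8% of the 36, against 21.7% of all genes tested) were called in each of the 12 fits on counts. With limma on log2(TPM + 1), TBC1D13 and TBC1D8 were not called.

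The study used RNA-seq to ask how Rbfox1 changes isoform expression, and isoforms were compared next. The tables list 389 isoforms of the 36 genes, of which 197 passed the filter on low counts. By limma-voom 15 rose and 16 fell, which is 15.7% of those tested against 12.6% of all 72438 isoforms tested (6.19% up and 6.44% down). They belonged to 19 genes, and in 4 genes, TBC1D1, TBC1D4, TBC1D9B and TBC1D13, isoforms changed in both directions. For these gene counts no share over all genes was worked out. The count was 16 without No Dox replicate 1, 18 without No Dox replicate 2 and 17 without No Dox replicate 3. Without Dox replicate 3 it was 22, of which 9 fell.

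Isoform usage, which asks whether an isoform changed differently from the rest of its gene, changed in 15 of 32 genes by limma diffSplice (46.9%, against 27.5% of 12328 genes tested). With edgeR's diffSpliceDGE 7 genes were called, against 10.0% of all genes, and all 7 were among the 15. The diffSplice test assumes that isoforms of a gene share a variance, and whether this accounts for its further calls was not tested. Of the 15 genes, 8 had fallen and 3 had risen at the gene level, and 4 (TBC1D2, TBC1D16, TBC1D17 and RABGAP1L) had not passed there. For this split no share over all genes with changed usage was worked out. In 10 of the 15 an isoform moved by 10 points or more of isoform percentage, the percent of a gene's abundance that RSEM gives to an isoform, and the gene was at 1 TPM or more in both groups. That is 31.2% of the genes tested, against 9.51% of all genes. Neither this share nor the 46.9% was compared with genes of like level and isoform number. The genes were also chosen with earlier results of these data known. In these 10 genes 18 isoforms moved by that much. Of the 18, which were chosen by their shift, 10 also passed their own limma-voom test. Leaving out single samples took 3 of them under 10 points. TBCK-204 went from 10.8 to 6.94 points without No Dox replicate 1 and to 6.81 without Dox replicate 2, RABGAP1L-208 from 10.7 to 9.73 and 9.21 without the same samples, and TBC1D17-201 from 10.5 to 8.21 without No Dox replicate 3 and to 8.65 without Dox replicate 1.

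**Figure D3:**
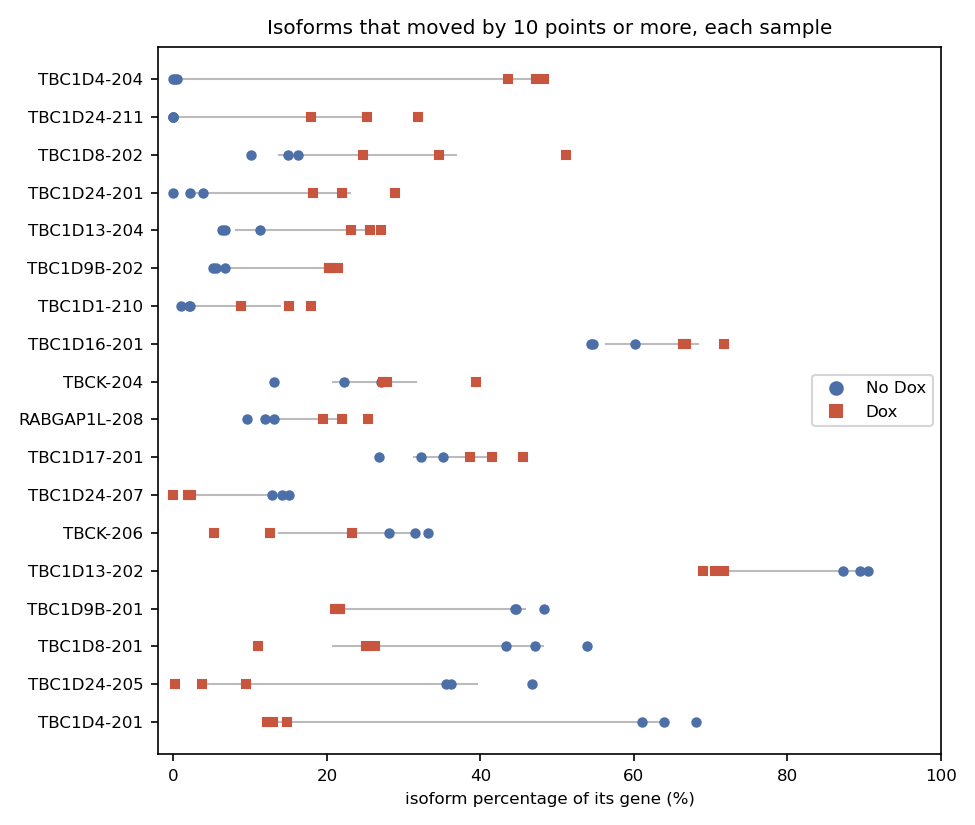
Isoform percentage of its gene (x axis, %) in each No Dox sample (circles) and Dox sample (squares) for the 18 isoforms that moved by 10 points or more; grey lines join the group means. TBC1D4-204 goes from 0.213% to 46.4% and TBC1D4-201 from 64.4% to 13.3%.

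The largest shift was in TBC1D4. TBC1D4-201 made up 63.9%, 68.1% and 61.1% of the gene in untreated cells and 12.2%, 14.8% and 12.95% after doxycycline. Its own level fell from 16.5 ± 0.93 to 2.56 ± 0.20 TPM (limma-voom log2 fold change -2.71 ± 0.09, adjusted p = 3e-05). In its place TBC1D4-204 appeared, with 0.42%, 0.22% and 0% in No Dox and 47.2%, 43.6% and 48.3% in Dox, or 0.053 and 8.92 TPM on average. Here the groups were far apart in every sample (limma-voom adjusted p = 0.0092, diffSplice adjusted p for the gene = 5.3e-11, diffSpliceDGE adjusted p = 6.4e-11). TBC1D4-204 (6347 bases) is 165 bases longer than TBC1D4-201 (6182 bases). TBC1D4-202 (6364 bases) was listed at 0% in each No Dox sample and at 3.55%, 6.56% and 3.73% in Dox. Together TBC1D4-202 and TBC1D4-204 went from 0.213 ± 0.21% to 51.0 ± 0.95%. The remaining main isoform, TBC1D4-208 (6656 bases), was at 31.4% and 33.9% of the gene, and its level fell with that of the gene (log2 fold change -0.31, limma-voom adjusted p = 0.032).

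The shift in TBC1D9B was smaller but rested on the deepest counts of these genes. TBC1D9B-201 held 44.6%, 48.3% and 44.7% in No Dox and 21.1%, 21.65% and 21.7% in Dox, while its level fell from 39.3 ± 1.5 to 13.9 ± 0.61 TPM. The share of TBC1D9B-202 went the other way, from 5.84 ± 0.80% to 20.7 ± 0.72%, as its level rose from 5.01 ± 0.73 to 13.4 ± 0.84 TPM. The isoforms were thus nearly equal in Dox, whereas TBC1D9B-201 had been the major of the pair. They differ by 54 bases in length, 5119 for TBC1D9B-201 and 5173 for TBC1D9B-202. Their limma-voom log2 fold changes were -1.51 ± 0.05 and 1.41 ± 0.10 (adjusted p of 2.9e-05 and 0.00051), and both usage tests called the gene (adjusted p of 1.5e-30 by diffSplice and 7.2e-29 by diffSpliceDGE). In all, TBC1D9B-201 and TBC1D9B-202 made up 51.7 ± 1.6% of the gene in No Dox and 42.1 ± 0.92% in Dox.

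In TBC1D24, 4 isoforms moved. TBC1D24-205 (6673 bases) held 36.2%, 35.5% and 46.8% in No Dox and 9.47%, 3.72% and 0.26% in Dox. TBC1D24-211 (6611 bases) was listed at 0% in each No Dox sample and at 17.9%, 25.3% and 31.9% in Dox. Similarly TBC1D24-207 (4382 bases) went from 12.9%, 15.04% and 14.1% to 2.32%, 0% and 1.96%, and TBC1D24-201 (4340 bases) from 1.99% to 23.0% on average. Taken as pairs chosen after their values were seen, TBC1D24-205 with TBC1D24-207 went from 53.5 ± 6.4% to 5.91 ± 5.1%, and TBC1D24-201 with TBC1D24-211 from 1.99 ± 1.9% to 48.0 ± 1.8%. The gene was called by diffSplice (adjusted p = 6.7e-06) and diffSpliceDGE (adjusted p = 2.6e-07). Of its single isoforms, TBC1D24-205 passed (limma-voom adjusted p = 0.043), and TBC1D24-201, TBC1D24-207 and TBC1D24-211 did not (adjusted p of 0.072, 0.074 and 0.082). The SD over Dox samples was 5.4 points for TBC1D24-201, 7.0 for TBC1D24-211 and 1.8 for their sum.

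In TBC1D8 the usage of isoforms of similar length changed. TBC1D8-201 (3627 bases) held 43.4%, 53.9% and 47.1% in No Dox and 26.3%, 11.1% and 25.1% in Dox, and TBC1D8-202 (3803 bases, 176 more) held 16.3%, 10.1% and 14.9% in No Dox and 34.6%, 51.1% and 24.7% in Dox. Their order was reversed in 2 of the 3 Dox samples, and in the third they were about level. The gene was called by diffSplice (adjusted p = 8.1e-05) and diffSpliceDGE (adjusted p = 0.025). Of the pair, TBC1D8-201 passed its own test (limma-voom adjusted p = 0.025) and TBC1D8-202 did not (adjusted p = 0.075). Fewer reads stood behind it, with 1318 counts for TBC1D8-201 and 939 for TBC1D8-202 over the 6 samples.

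**Figure D4:**
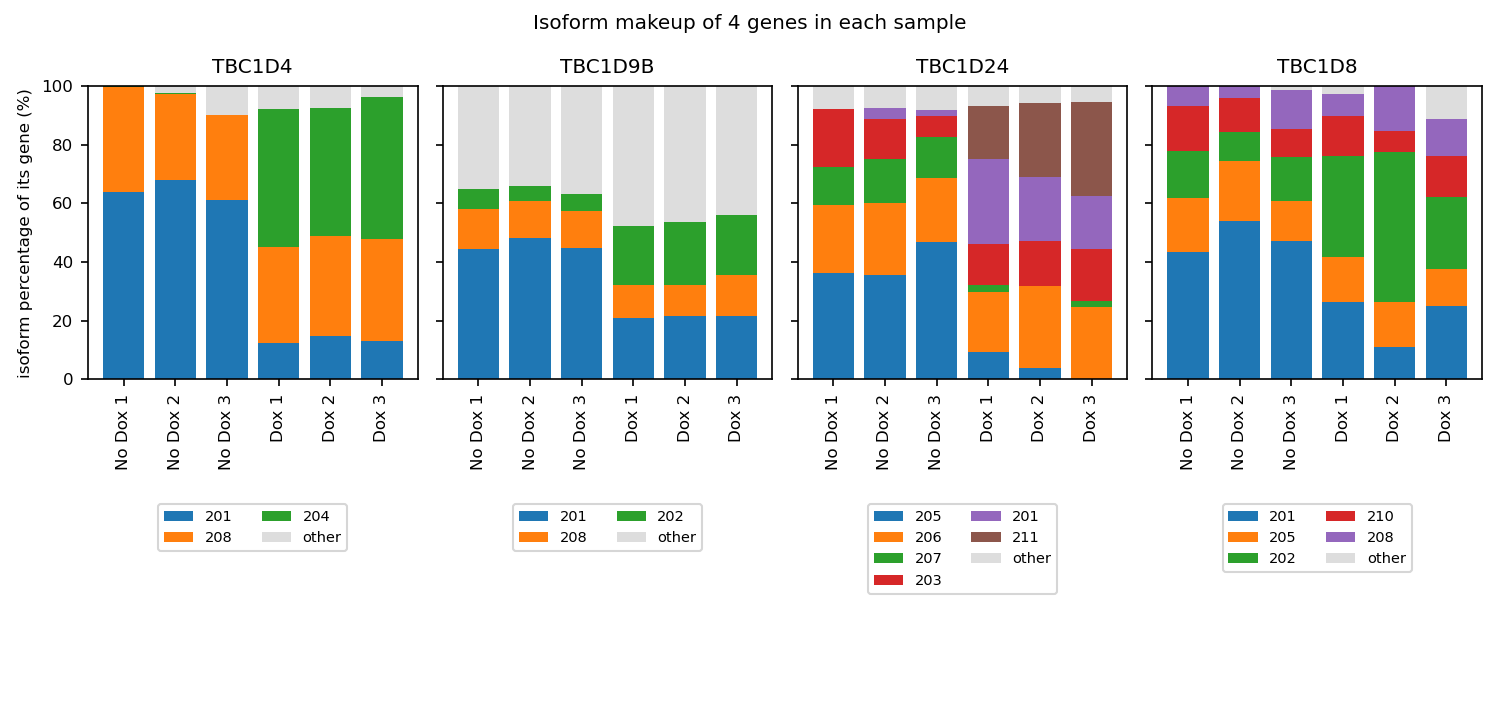
Isoform percentage (y axis, %) in each sample for TBC1D4, TBC1D9B, TBC1D24 and TBC1D8, stacked by isoform; isoforms under 10% in both groups are pooled as other. TBC1D4-204 is near 0 in No Dox and makes up 43.6% to 48.3% in Dox, and TBC1D24-211 is seen in Dox samples alone.

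TBC1D1 and RABGAP1L were also called by both usage tests. In TBC1D1 several isoforms moved by fewer points. TBC1D1-201 (5703 bases) went from 16.7% to 10.3%, TBC1D1-216 (2977 bases) from 19.6% to 27.8% and TBC1D1-214 (4119 bases) from 0.363% to 6.67% (limma-voom log2 fold change 4.11 ± 0.52, adjusted p = 0.0039). TBC1D1-210, a short isoform of 627 bases, had the largest shift, with 0.96%, 2.17% and 2.01% in No Dox and 15.1%, 8.82% and 17.9% in Dox, but it had 245 counts and did not pass its own test (limma-voom adjusted p = 0.059). RABGAP1L-208 (6282 bases) held 9.56%, 11.97% and 13.2% in No Dox and 22.0%, 25.3% and 19.5% in Dox. It rose from 1.35 to 2.44 TPM (limma-voom adjusted p = 0.021), although RABGAP1L as a gene did not pass.

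The other 4 of the 10 genes were called by diffSplice and not by diffSpliceDGE. In TBC1D13 the main isoform, TBC1D13-202 (3855 bases), went from 89.1 ± 1.6% to 70.4 ± 1.3%. TBC1D13-204, of 502 bases, went from 8.12 ± 2.8% to 25.2 ± 2.0% (diffSpliceDGE adjusted p for the gene = 0.15). Isoform percentage is scaled by length, so this short isoform held a smaller share of the gene's reads than of its abundance. The call of TBC1D13 was lost without No Dox replicate 2. TBCK-206 went from 30.9% to 13.7% with 23.2%, 12.6% and 5.27% in the single Dox samples, and did not pass its own test (limma-voom adjusted p = 0.34). TBCK-204 went from 20.8 ± 7.0% to 31.6 ± 6.9% and rose in level from 0.893 to 2.16 TPM (limma-voom adjusted p = 0.014). The usage call of TBCK was lost without Dox replicate 2. TBC1D16-201 went from 56.4% to 68.3% of its gene and TBC1D17-201 from 31.4% to 41.9%, though neither isoform passed its own test. The usage call of TBC1D16 was lost with the replicate number as a block, and that of TBC1D17 was lost without No Dox replicate 3 and without Dox replicate 3. At the gene level neither passed, although TBC1D16 was called with library size alone (log2 fold change 0.09, edgeR adjusted p = 0.044) and without Dox replicate 3 (0.08, edgeR adjusted p = 0.016).

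Usage was further called in SGSM3, TBC1D2, TBC1D5, TBC1D30 and TBC1D31. Of these TBC1D5 was called by diffSpliceDGE as well (adjusted p = 0.0081), with TBC1D5-201 at 47.3% and 52.3% of the gene. In TBC1D2, a RAB7 GAP also called Armus, TBC1D2-205 went from 70.2% to 27.1%, but the gene was at 0.873 and 1.04 TPM and its samples ranged from 52.4% to 87.7% in No Dox and from 13.97% to 48.25% in Dox. The calls of TBC1D2 and TBC1D31 were lost without any one No Dox replicate and without Dox replicate 1, and that of TBC1D2 also without Dox replicate 3 and with the replicate number as a block. The call of SGSM3 was lost without No Dox replicate 1 or 2 or Dox replicate 1, that of TBC1D5 without No Dox replicate 1 or Dox replicate 1, and that of TBC1D30 without Dox replicate 3. Usage could not be tested in TBC1D9, TBC1D12, TBC1D22B and TBC1D26, which had fewer than 2 isoforms past the filter.

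**Figure D5:**
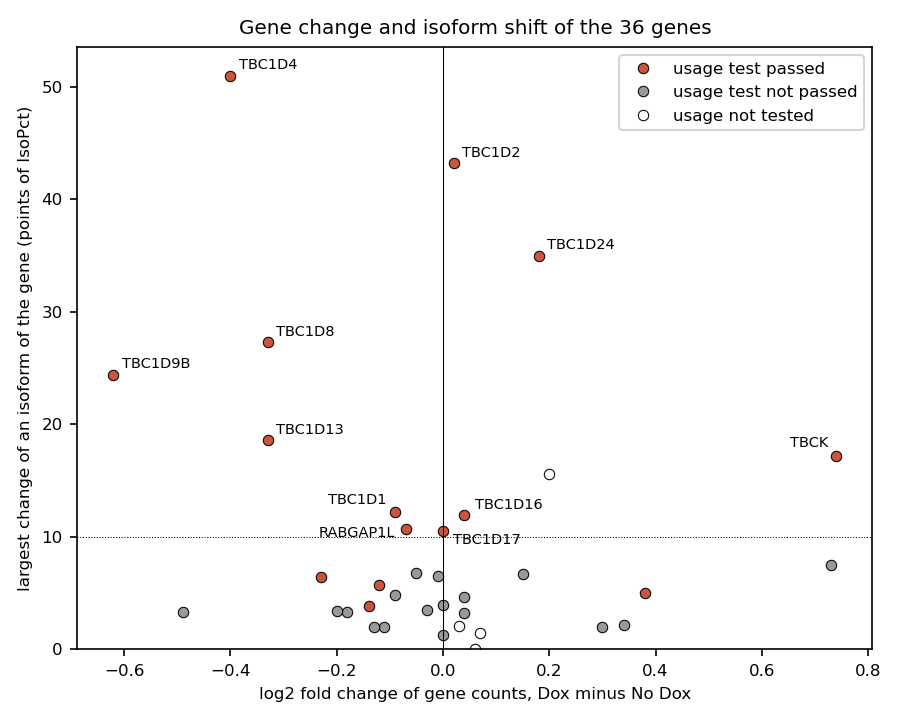
Log2 fold change of gene counts (x axis) against the largest change of an isoform in points of isoform percentage (y axis) for each of the 36 genes, coloured by the usage test; the dotted line is at 10 points. TBC1D4 lies highest, with a log2 fold change of -0.40, and TBC1D24 (0.18) also lies high, while TBC1D2, at 43.2 points, was near 1 TPM.

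The rest of the Rab cycle was then examined with lists of genes, whose counts stand against 24.9% of all genes tested that rose and 26.5% that fell, 51.4% in all. No list was tested as a group. Of 50 Rab GTPase genes tested, 18 rose and 13 fell and 19 did not pass, with a median log2 fold change of 0.02. The 3 with the largest changes in counts all fell. RAB32, of mitochondria and melanosomes, went from 9.09 ± 0.33 to 5.18 ± 0.17 TPM. RAB39B, a gene of intellectual disability, went from 2.04 ± 0.13 to 1.23 ± 0.084 TPM, and RAB26 from 12.4 ± 1.5 to 9.21 ± 1.1 TPM. Of 32 exchange factors, which load Rabs with GTP, 6 rose and 13 fell, with a median of -0.06. The counts of DENND3, an activator of RAB12, fell by 0.83 on the log2 scale, while its TPM went from 9.57 ± 0.44 to 8.04 ± 0.71. In contrast, DENND6B and RIN2 rose by log2 fold changes of 0.82 and 1.33 from levels of 1.21 and 0.51 TPM. Of 7 genes for Rab escort, recycling and prenylation, the escort genes CHM and CHML rose by log2 fold changes of 0.34 and 0.29, RABGGTA and GDI2 fell and 3 did not pass. RAB3GAP2, of a Rab GAP without a TBC domain, had a log2 fold change of 0.11 (edgeR adjusted p = 0.0084), and its partner RAB3GAP1 did not pass. Of 6 TBC domain genes outside the symbol rule that could be tested, EVI5 and EVI5L rose by log2 fold changes of 0.17 and 0.31. GRTP1 fell by 0.22 on the log2 scale and 3 did not pass. The TPM of EVI5 rose by more than its counts, from 10.7 ± 1.8 to 15.2 ± 1.2. Of 12 genes for partners of the TBC domain proteins, 4 rose and 4 fell. Among them were TSC1, which rose, and GATD1 of FERRY, which had a log2 fold change of -0.30.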

How the data were processed

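RNA-seq was performed on 3 No Dox and 3 Dox samples, grouped by the treatment in the labels. Stranded mRNA libraries were trimmed, mapped to GRCh38 and quantified by the authors with cutadapt, STAR and RSEM, named in the submitters' processing notes (versions not given in the sources used here). For 208621 isoforms the authors deposited expected counts (RSEM's estimated fragments, not normalized), TPM, FPKM (not used here) and isoform percent (an isoform's percent of the abundance of its gene). Because RSEM shares out reads between isoforms and gene copies with common sequence, isoform values are estimates. Coordinates and sequences are not printed, because a human reference was not used here.

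Isoform counts were added up by gene, then rounded. Genes were tested with edgeR 4.0.16 (TMM, filterByExpr, glmQLFit and glmQLFTest), isoforms with limma-voom (limma 3.58.1) and usage with limma diffSplice (Simes) where at least 2 isoforms of a gene passed the filter, in R 4.3.3. Tests were two-sided over all features, with Benjamini-Hochberg adjustment and a threshold of 0.05. With 3 samples against 3 an exact permutation test cannot give p below 0.1. Standard errors of edgeR values were taken as the log2 fold change over the square root of F. The fits were also run on simulated counts, with the same dispersion (extra variance between samples) for every gene and another for every isoform. Such counts cannot test the shared variance that diffSplice assumes. Values per sample were given for changed genes with an absolute log2 fold change of at least 0.3 (up to 14), for isoforms that moved by 10 points or more in genes with changed usage and a mean of at least 1 TPM in both groups (up to 12 genes), and the 3 largest changes of each list were named. Members and lists were chosen with earlier results of these data known. Alternatives were DESeq2 1.42.0, diffSpliceDGE, edgeR on isoforms, the F test, other scalings, filters and units, a block for the replicate number, and the omission of each sample.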

Additional observations from a re-analysis of the deposited data

How the results depend on the processing

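RBFOX1 induction had log2 fold changes from 4.48 to 4.60 and kept its call in all alternatives run. The count of changed genes was 13 with limma on log2(TPM + 1), where 35 of the 36 were tested and 5 fell, and the cause was not tested. Of these 13, TBC1D32 (log2 fold change 0.18, limma adjusted p = 0.048) was not called in the main fit. Library size alone left 8 that fell against 13, and over all genes it shifted the median log2 fold change from 0.005 to 0.052. Leaving out a sample gave 15 to 19 changed genes, 6 to 8 that rose and 9 to 12 that fell. The isoform count was 16 to 24 when a sample was left out, with 9 to 13 that rose and 6 to 11 that fell. Usage was called in 7 genes with diffSpliceDGE (the cause was not tested) and in 11 to 15 when a sample was left out. With the replicate number as a block 20 genes, 25 isoforms (8 that fell) and 13 genes with changed usage were called. Deviations of same-numbered samples correlated at 0.041, 0.028 and 0.057, and those of samples with different numbers at -0.038 to -0.002. The labels do not say that a number marks a shared batch, and whether it does cannot be told here. Directions were read from rounded log2 fold changes, so TBC1D17, TBC1D20 and TBC1D23, at 0 in the main fit, had none. Other genes turned direction in some settings, each without passing there. SGSM2 was at 0.02 with library size alone and 0.07 with TPM. SGSM3 was at 0.04 and TBC1D16 at -0.09 with TPM, and TBC1D10A at 0.04 with library size alone. Leaving out a sample turned SGSM2 (-0.05 to 0.01), TBC1D10A (-0.06 to 0.03), TBC1D2 (-0.15 to 0.16), TBC1D25 (-0.10 to 0.02) and TBC1D3B (-0.18 to 0.02). Of the 18 isoform shifts, those of TBCK-204, RABGAP1L-208 and TBC1D17-201 fell under 10 points when some samples were left out. Their lowest values were 6.81, 9.21 and 8.21. The shift of TBC1D8-202 went from 23.0 points to 15.8 without Dox replicate 2 and to 29.1 without Dox replicate 3. The fewest counts stood behind TBC1D26 (178 over the 6 samples), TBC1D3B (357) and TBC1D2 (671).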
